A study of Rattus norvegicus with 11 samples.

Results

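The hormones of the anterior pituitary and the factor that drives several of them were followed in the trigeminal ganglia (TRG) of rats with orofacial inflammation. The genes were Gh1, Prl, Tshb, Lhb, Fshb, Cga, Pomc and Pou1f1, chosen by name through the RefSeq identity of their probes. Each had 1 probe, so the set held 8 of the 24684 probes of the array. The set was chosen because its signals were known to vary together over these arrays and for its comparison between the sides, so both are described here without a test of the members. Male Wistar rats had received complete Freund's adjuvant (CFA, killed mycobacteria in oil) under the skin of 1 whisker pad, 50 µl at 1 mg/ml. On day 7 the TRG of the injected (CFA) side and of the contralateral side were taken. The 6 CFA arrays came from rats 1, 2, 3, 5, 6 and 8, and the 5 contralateral arrays from rats 1, 2, 3, 5 and 6. The contralateral ganglia belonged to the same injected rats, and no saline-injected or uninjected rat was among the arrays.

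The anterior pituitary holds several hormone cell types. Somatotrophs make growth hormone (Gh1), lactotrophs make prolactin (Prl), and thyrotrophs and gonadotrophs make the glycoprotein hormones, in which a hormone-specific beta subunit (Tshb, Lhb or Fshb) joins the common alpha subunit Cga. Corticotrophs, and the melanotrophs of the intermediate lobe, make Pomc, the precursor of corticotropin and melanotropins. Pou1f1 (Pit-1) is the transcription factor that somatotrophs, lactotrophs and thyrotrophs depend on, and it binds the Gh1, Prl and Tshb genes. The gland lies in the middle of the skull base, close to the TRG of either side, whereas the ganglion itself consists of sensory neurons with satellite glia, Schwann cells and connective tissue.

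The sequences before 5 of the genes are shown because Pou1f1 was measured beside genes it is known to bind. RefSeq promoter sequences of the rat assembly GRCr8 matched Prl, Tshb, Cga, Lhb and Pomc, and none was matched for Gh1, Fshb and Pou1f1. Each run gives the 150 bases before the annotated start, 5′ to 3′ along the gene, with matches in capitals. They lie at chr17:38298218-38298367 (Prl, minus strand), chr2:192918055-192918204 (Tshb, minus strand), chr5:54283190-54283339 (Cga, plus strand), chr1:105037307-105037456 (Lhb, plus strand) and chr6:32659203-32659352 (Pomc, plus strand). A motif of Pou1f1, a motif of Nr5a1 (the steroidogenic factor of gonadotrophs) and the TATA box were searched for on both strands. Their letters were TATNCAT for Pou1f1, TGACCTT for Nr5a1, and for the last of them TATAAA.
Prl: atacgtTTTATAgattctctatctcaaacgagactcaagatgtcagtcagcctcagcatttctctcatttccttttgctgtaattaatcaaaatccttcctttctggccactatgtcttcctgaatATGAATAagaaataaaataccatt
Tshb: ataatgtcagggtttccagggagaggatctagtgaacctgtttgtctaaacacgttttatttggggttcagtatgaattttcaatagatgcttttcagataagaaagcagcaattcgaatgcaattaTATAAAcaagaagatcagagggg
Cga: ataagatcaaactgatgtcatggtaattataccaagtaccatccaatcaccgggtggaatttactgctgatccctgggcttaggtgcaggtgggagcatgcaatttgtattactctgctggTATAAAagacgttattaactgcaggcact
Lhb: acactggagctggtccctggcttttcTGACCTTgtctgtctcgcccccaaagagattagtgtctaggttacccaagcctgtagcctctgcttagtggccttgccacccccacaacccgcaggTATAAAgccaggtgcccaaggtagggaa
Pomc: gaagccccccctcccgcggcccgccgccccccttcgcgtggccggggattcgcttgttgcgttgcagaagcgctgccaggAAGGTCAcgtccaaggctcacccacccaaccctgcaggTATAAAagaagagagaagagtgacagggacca
Of all 33469 promoters of the table, over 250 bases before to 50 after the start, 9.88% held the Pou1f1 letters, 4.61% those of Nr5a1 and 14.2% the TATA box. The Pou1f1 letters stood only in the Prl run among these 5, as ATGAATA on the opposite strand, at positions -24 to -18 from the start. The Nr5a1 letters stood in Lhb at -124 to -118, and as AAGGTCA in Pomc at -70 to -64. Tshb, Cga, Lhb and Pomc had TATAAA between positions -32 and -18, and Prl had its reverse complement at -144 to -139. A match is a description of the letters, and the arrays did not measure binding.

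All 11 arrays carried the markers of a sensory ganglion. The 7 measured of 10 listed sensory neuron markers were above background on every array, with a mean log2 level of 13.94 to 14.23 on the CFA side and 13.71 to 14.17 on the contralateral side. Between 68.9% and 82.3% of spots on CFA arrays were well above background, and between 71.6% and 82.8% on contralateral arrays, with no saturated spot. Values below are log2 of the normalised signal, in which 1 unit is a doubling, and only values of the same probe can be compared. "Above background" is the verdict of the scanner software. In bulk tissue, fewer cells of a type and less RNA per cell cannot be told apart.

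Gh1 was above background on all 11 arrays, and its signal differed by 1466-fold between the highest and the lowest. On the CFA side it measured 5.71, 16.23, 9.63, 11.25, 12.46 and 13.29 in rats 1, 2, 3, 5, 6 and 8, against 5.82, 12.84, 12.44, 11.13 and 15.52 on the contralateral side of rats 1, 2, 3, 5 and 6. Both ganglia of rat 1 were low, and the highest arrays were the CFA side of rat 2 and the contralateral side of rat 6. Prl followed the same order at the ends. It measured 1.49, 15.32, 8.35, 10.76, 11.47 and 12.12 on the CFA side and 3.98, 11.81, 11.04, 11.01 and 14.33 on the contralateral side. On the CFA array of rat 1 Prl was not above background, and over the other 10 arrays its signal spanned 2581-fold. By the SD over the 11 arrays Prl was the 2nd, Gh1 the 5th and Cga the 6th most variable of the 24684 probes.

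The glycoprotein subunits did not vary alike. Cga, the shared alpha subunit, measured 5.30, 13.60, 7.56, 9.70, 10.31 and 12.45 on the CFA side and 5.13, 10.35, 9.79, 9.50 and 13.36 on the contralateral side, a span of 356-fold over the arrays. Tshb, the thyrotropin beta subunit, measured 5.21, 11.16, 5.54, 7.37, 8.09 and 7.10 on the CFA side and 5.60, 7.92, 7.65, 6.88 and 11.60 on the contralateral side, a span of 83.8-fold. The top 2 arrays of both genes were again the CFA side of rat 2 and the contralateral side of rat 6. Lhb, the luteinising hormone beta subunit, had a narrower span of 24.8-fold. It measured 10.81, 13.34, 10.95, 11.14, 11.05 and 11.91 on the CFA side and 8.71, 10.25, 11.04, 10.90 and 12.78 on the contralateral side. Fshb, the follitropin beta subunit, was not above background on any of the 6 CFA arrays, and was so on 2 of 5 contralateral arrays. Those were the arrays of rats 1 and 2, at 3.41 and 3.37, and no fold can be given for Fshb.

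Pomc was above background on all 11 arrays. It measured 11.16, 17.33, 11.01, 12.10, 13.90 and 14.92 on the CFA side and 11.15, 13.03, 14.63, 11.74 and 14.23 on the contralateral side, a span of 79.9-fold. Its lowest arrays were the CFA side of rat 3 and both ganglia of rat 1, with nearly equal values, although Gh1 was 9.63 on that array of rat 3 and 5.71 (CFA) and 5.82 (contralateral) on those of rat 1. Pou1f1, the transcription factor, was dim. It measured 2.50, 8.03, 2.51, 3.23, 4.77 and 5.58 on the CFA side, where 4 of 6 arrays were above background, and 1.66, 5.33, 4.36, 4.08 and 7.26 on the contralateral side, where 4 of 5 were. Over the 8 arrays above background Pou1f1 spanned 27.9-fold, and the 3 others were both ganglia of rat 1 and the CFA side of rat 3, which were also the 3 lowest of Gh1, Prl and Cga.

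**Figure D1:**
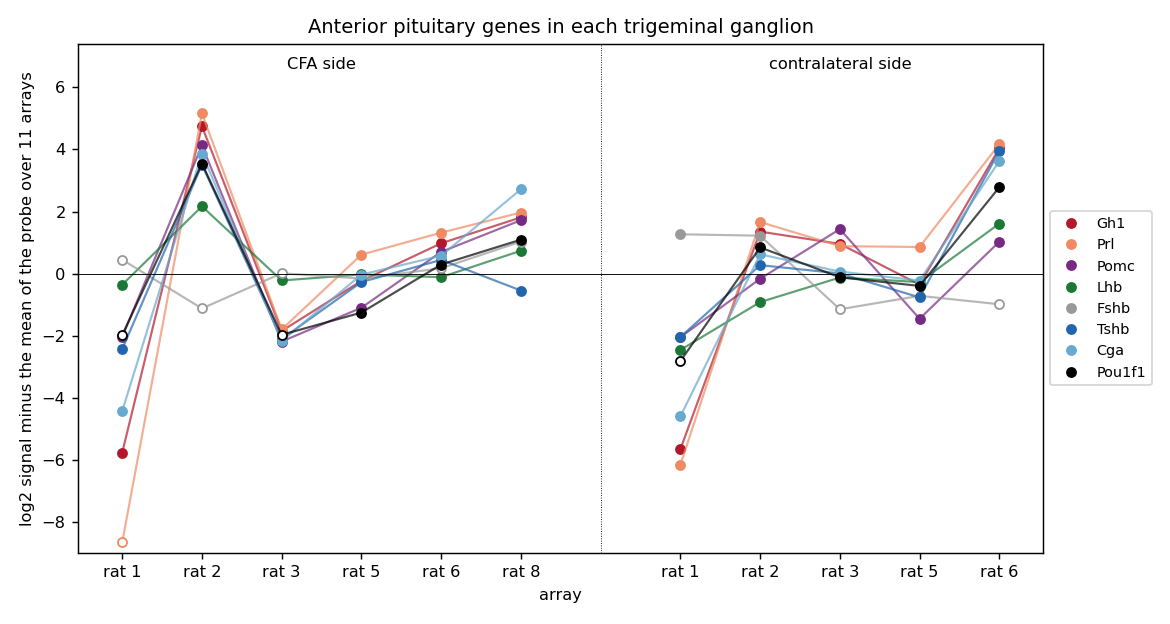
Normalised log2 signal of each gene minus its mean over the 11 arrays (vertical axis) for each array (horizontal axis, CFA side left, contralateral side right). Filled points were well above background, open points were not, and lines only join the points of a gene. Both arrays of rat 1 lie low for Gh1 (5.71 CFA, 5.82 contralateral), CFA rat 2 (16.23) and contralateral rat 6 (15.52) lie high, and Fshb does not follow.

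None of the 8 genes passed the threshold between the sides (p of 0.05 or less with a fold over 2), and the groups overlapped for all 8. Over all probes 498 of 24684 (2.02%) passed it, 285 higher (1.15%) and 213 lower (0.863%) on the CFA side, and none (0%) passed an adjusted p of 0.05 (limma, Benjamini-Hochberg), while 2659 had a p of 0.05 or less at any fold. The adjusted count was 121 without the CFA array of rat 1, 69 with the slide as a block and 35 with the scan day as a block. All 5 contralateral arrays were scanned on the 1st scan day, and CFA rat 1 was the only CFA array of that day. Without it, side and scan day coincide and cannot be told apart, and with either block the difference rests on it. As the contrast between the sides was part of the choice of the genes, nothing is read from the count of 0. Gh1 averaged 11.43 ± 3.56 in CFA ganglia (SD, n = 6) and 11.55 ± 3.58 in contralateral ganglia (SD, n = 5), a log2 difference of -0.12 with an SE of 1.97. Prl averaged 9.92 ± 4.70 and 10.43 ± 3.85 on the CFA and contralateral sides, a difference of -0.51 (SE 2.39). For Cga the means were 9.82 ± 3.07 on the CFA side and 9.63 ± 2.95 on the contralateral side, a difference of 0.19 (SE 1.66).

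The other differences also lay within 2 SE of 0. Tshb averaged 7.41 ± 2.14 on the CFA side and 7.93 ± 2.24 on the contralateral side, a difference of -0.52 (SE 1.21). Pomc averaged 13.40 ± 2.47 on the CFA side and 12.96 ± 1.51 on the contralateral side (0.45, SE 1.16). Pou1f1 averaged 4.44 ± 2.16 on the CFA side and 4.54 ± 2.04 on the contralateral side (-0.10, SE 1.16). Lhb averaged 11.53 ± 0.96 on the CFA side and 10.74 ± 1.47 on the contralateral side (0.80, SE 0.67), with differences of 0.29 to 1.31 when 1 array was left out. The median difference over all probes was -0.04. With SEs of this size, a doubling of any of these 7 genes would lie within 2 SE of 0, so these arrays cannot show that the sides were alike.

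**Figure D2:**
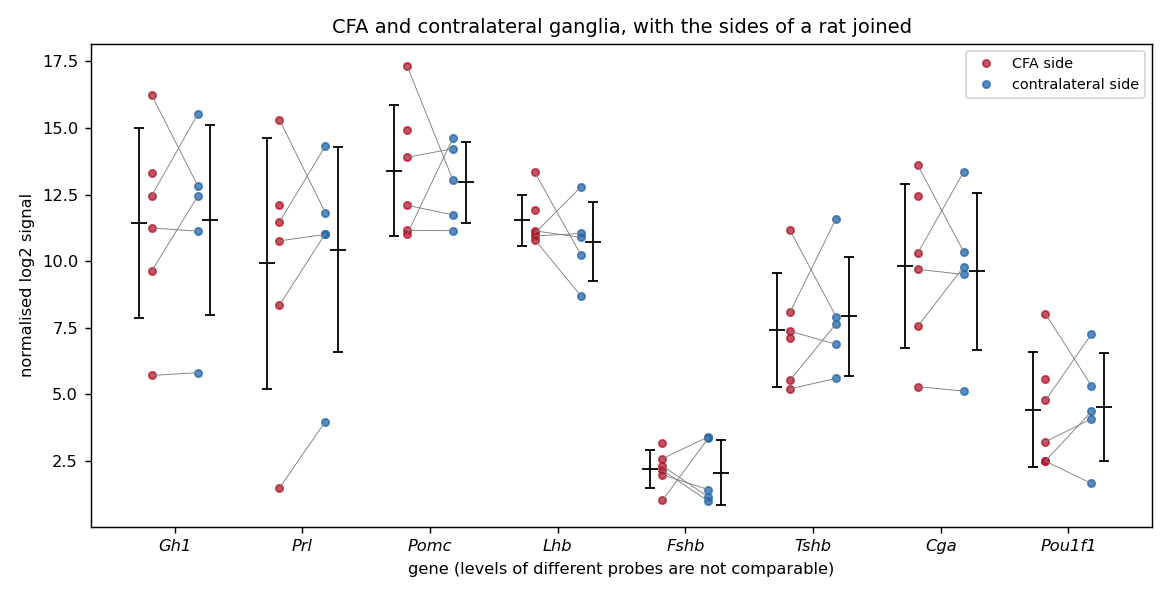
Normalised log2 signal (vertical axis) of each gene on the CFA side (left, 6 arrays) and the contralateral side (right, 5 arrays), with grey lines joining the sides of a rat and black bars giving the mean ± SD. The groups overlap for every gene, and the joined sides run upwards in some rats and downwards in others, as for Gh1 (3.39 in rat 2, -3.06 in rat 6).

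Within single rats the sides differed in either direction. Gh1 was 3.39 log2 units higher on the CFA side of rat 2, but the CFA side minus the contralateral side was -2.81 in rat 3 and -3.06 in rat 6. In rats 1 and 5 the sides lay close, at -0.11 and 0.12. Every gene except Fshb was higher on the CFA side of rat 2 (by 2.70 to 4.30) and lower on the CFA side of rat 6 (differences of -0.33 for Pomc to -3.51 for Tshb). In rat 3 the 7 genes were also lower on the CFA side, with differences of -0.10 for Lhb to -3.62 for Pomc. Thus 3 of the 5 rats had 1 ganglion with more of all 7 transcripts than the other, the CFA one in rat 2 and the contralateral one in rats 3 and 6.

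Arrays with the same scan time were taken to share a slide, as no slide label was read. Slide and side were tied in this way, and only 1 of 5 slides held both sides, namely CFA rat 1 beside contralateral rats 5 and 6. On that slide CFA minus contralateral was -7.61 for Gh1, -11.18 for Prl, -6.14 for Cga, -4.03 for Tshb, -3.18 for Pou1f1, -1.83 for Pomc and -1.03 for Lhb. These values rest on 1 low CFA ganglion, that of rat 1, whose other ganglion was on another slide and was as low (5.82 for Gh1). Scan day and side were tied too, as the 1st scan day held every contralateral array and only 1 CFA array, that of rat 1. The later days held CFA arrays alone. With the scan day as a block the difference, which again rests on that CFA ganglion, was -5.84 for Gh1 and -8.94 for Prl. Prl passed the threshold under the slide and scan day blocks but under none of the other settings. Leaving out the CFA array of rat 1 moved the Prl difference to 1.17, and leaving out the contralateral array of rat 1 moved it to -2.13.

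Over the 11 arrays, 7 of the 8 genes varied together. Among their 21 pairs the median Pearson r was 0.84, from 0.71 (Prl with Lhb) to 0.98 (Gh1 with Cga). Without the 2 highest arrays the median was 0.82 but the lowest pair fell to 0.36, and with 1 array left out the lowest pair was 0.59 (without CFA rat 2, or without contralateral rat 1). The arrays share rats, slides and days, and they are counted here as 11 points. Gh1 with Cga had r = 0.98 and Spearman's rho = 0.99, and r = 0.96 without both arrays of rat 1, which lay farthest from the median of Gh1. Gh1 with Prl had r = 0.98 and rho = 0.99, and also 0.98 without these arrays. Gh1 with Pou1f1 had r = 0.93, rho = 0.98 and r = 0.99 without them, and Gh1 with Tshb had r = 0.88, rho = 0.88 and r = 0.94.

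Pomc and Lhb followed less closely. Gh1 with Pomc had r = 0.84 and rho = 0.88, and Gh1 with Lhb had r = 0.80 and rho = 0.75. The pairs held on either side taken alone, since r of Gh1 with Cga was 0.98 over the 6 CFA arrays and 0.99 over the 5 contralateral arrays, and that of Gh1 with Lhb was 0.82 over the CFA arrays and 0.92 over the contralateral arrays. Over the 6 arrays of the 1st scan day, r was 0.98 for Gh1 with Prl, 0.99 for Gh1 with Cga and 0.72 for Gh1 with Lhb. The arrays at the ends of the order were shared more than those between. The CFA side of rat 2 ranked first for 6 of them and second for Tshb, and the contralateral side of rat 6 ranked first or second for 6 and lower only for Pomc (rank 4). Between them the order differed, as the contralateral side of rat 2 ranked 10 for Lhb and 4 for Gh1, and the CFA side of rat 8 ranked 7 for Tshb and 3 for Gh1. Lhb with Tshb had the lowest rho, 0.64. The 3 lowest mean ranks were those of the CFA side of rat 3 and both ganglia of rat 1. The 8 probes lay on rows 10 to 280 of the 532 rows of the array grid.

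The signals also did not move by the same amount. The log2 distance between Gh1 and Cga stayed within a range of 4.69-fold over the arrays while Gh1 itself spanned 1466-fold. That between Gh1 and Prl spanned 17.2-fold, mainly through the CFA array of rat 1, on which Prl was not above background. The distance between Gh1 and Pomc spanned 107-fold and was widest on both arrays of rat 1. On the arrays of rat 1 Pomc was 11.16 (CFA) and 11.15 (contralateral), near the 11.01 of the CFA array of rat 3, whereas Gh1 was far lower in rat 1 than on that array. Lhb was 10.81 on the CFA side of rat 1, near most other arrays, and 8.71, its lowest value, on the contralateral side. As a slope on the mean of the centred Gh1 and Prl profiles, Cga moved by 0.74 log2 units per unit and Pou1f1 by 0.48. On the same profile the slope was 0.48 for Tshb, 0.43 for Pomc and 0.247 for Lhb. Fshb did not take part, with r = -0.51 to that profile on values mostly not above background.

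**Figure D3:**
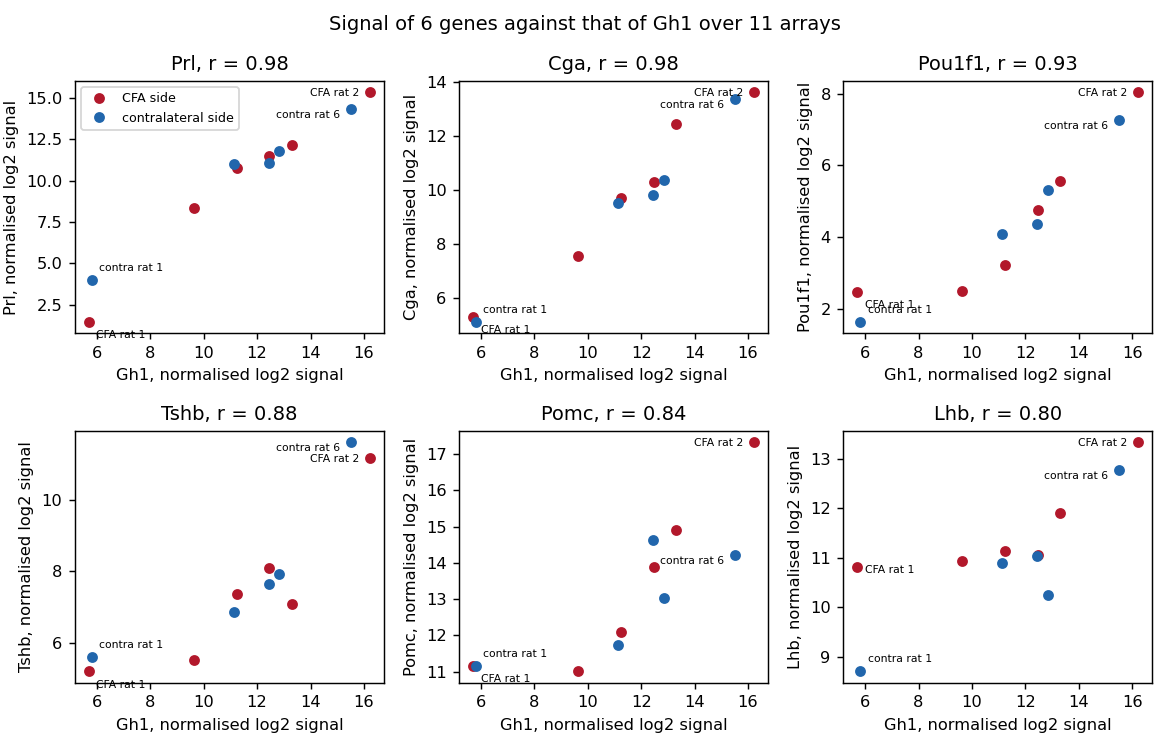
Normalised log2 signal of Prl, Cga, Pou1f1, Tshb, Pomc and Lhb (vertical axes) against that of Gh1 (horizontal axes), 1 point per array, with CFA arrays in red and contralateral arrays in blue and the arrays of rat 1, CFA rat 2 and contralateral rat 6 named. Prl and Cga rise with Gh1 over its whole range (r = 0.98 each), whereas Pomc and Lhb follow less closely (r = 0.84 and 0.80), and Pomc is about level over the 3 arrays lowest in Gh1.

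The other probes were then ranked by their likeness to the mean profile of Gh1 and Prl, which placed these 2 genes first and second by construction. Among the 24638 probes with a value on every array, Cga ranked 3rd (r = 0.97), Pou1f1 4th (0.90), Tshb 6th (0.85), Pomc 12th (0.80), Lhb 30th (0.75) and Fshb 23598th. The set was chosen because its signals vary together, so these ranks describe that choice and are no separate support. The median r over all probes was -0.04, and 25 probes (0.101%) had a slope of 0.25 or more. An r of 0.8 or more was found for 14 probes, 6 of the 8 genes and 8 other probes. In the opposite direction, 20 probes had an r of -0.8 or less.

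Of genes outside the set, Pitx1, a homeobox factor of the developing and adult pituitary, had the profile most like it (r = 0.89, slope 0.44). Pitx1 measured 2.46, 8.31, 3.04, 4.02, 5.58 and 6.78 on the CFA side and 3.00, 5.32, 4.49, 4.40 and 7.01 on the contralateral side, highest in the CFA ganglion of rat 2 as Gh1 and Prl were. Dlk1, a membrane protein of the Notch ligand family, measured 6.90, 12.14, 6.91, 7.54, 8.85 and 8.97 on the CFA side and 7.78, 9.58, 8.75, 7.46 and 10.95 on the contralateral side (r = 0.79, slope 0.35). Its top 2 arrays were those of Gh1. Six6, a homeobox factor of the hypothalamus, pituitary and eye, was singled out after its values were seen (r = 0.81, above background on 5 arrays).

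Among the 10 most like genes was also Itgam, the alpha M integrin of myeloid cells, at r = 0.81 (slope 0.41), with its highest array the contralateral one of rat 2. Ptprj, a receptor tyrosine phosphatase, had r = 0.77, Retn (resistin) r = 0.72, and Tapbpl, which edits peptides on class I molecules, r = 0.72. The neuropeptide Vip had r = 0.63, the protease Ctsg r = 0.58 and the matrix protein Tnn r = 0.50. They were picked by r among 12528 probes of 1 named gene above background on 6 or more arrays, of which 11 had a slope of 0.25 or more, and none of the 10 genes passed the threshold between the sides.

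Genes of the pituitary, of its hypothalamic inputs and hormone targets, and of the related placental prolactin family were read in lists. In all, 4 of the 80 measured genes (5%, of 88 listed) passed the threshold against 2.02% of all probes, 2 of the 4 in the placental family. None passed an adjusted p of 0.05 in limma, and 3 did without the CFA array of rat 1, where side and scan day coincide. None of the 4 calls held with normexp, without background correction, or with the slide or scan day as a block. The receptors through which the hypothalamus and hormones act on the pituitary had 0 higher and 2 lower of 13 measured. Thrb, a thyroid hormone receptor, was lower on the CFA side, with means of 2.78 ± 1.03 on the CFA side and 4.55 ± 0.27 on the contralateral side (log2 difference -1.77, SE 0.44, adjusted p 0.259). Esr1, an oestrogen receptor, was lower too, with 2.45 ± 1.35 on the CFA side and 4.74 ± 0.87 on the contralateral side (-2.29, SE 0.64, adjusted p 0.307), and both were dim, above background in 1 of 6 CFA ganglia and in 5 of 5 (Thrb) or 3 of 5 (Esr1) contralateral ganglia. With a floor at the lowest signal well above background the difference was -1.10 for Thrb and -1.28 for Esr1. Without background correction it was -0.41 for Thrb and -0.66 for Esr1, and with normexp -0.25 for Thrb and -0.37 for Esr1. With the slide as a block, which rests on CFA rat 1, it was -0.0004 for Thrb and 0.27 for Esr1. Neither gene followed the hormones (r = -0.25 for Thrb and -0.36 for Esr1).

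Among the releasing hormone receptors, Ghrhr, the receptor for growth hormone-releasing hormone on somatotrophs, had r = 0.74 to the profile but a slope of 0.11, with 3.999, 5.84, 4.18, 4.24, 4.72 and 4.59 on the CFA side and 4.33, 4.70, 4.45, 4.02 and 5.26 on the contralateral side. Gnrhr, the receptor of gonadotrophs, was above background on 3 arrays only (r = 0.53). Both were named after their values were seen. The 13 measured receptors of the list had a median r of 0.09, from -0.44 to 0.74. Trhr, the receptor for thyrotropin-releasing hormone, was above background on all 11 arrays and had r = -0.26. Of the transcription factors 0 of 14 measured passed the threshold in either direction. The smallest p was that of Lhx4, with 6.52 ± 0.33 on the CFA side and 7.21 ± 0.27 on the contralateral side (log2 difference -0.69, SE 0.18, adjusted p 0.269). Pitx1 and Six6 belong to this list, and among all 14280 named probes 0.336% had an r of at least 0.7.

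Genes that endocrine cells share with neurons rose little or not at all with the hormones. All 11 prohormone processing and granule genes were above background on every array, with slopes between -0.014 and 0.030, and 0 passed the threshold. Their r to the profile ran from -0.29 to 0.59 (Pam). Scg2, a granin of secretory granules, had the smallest p (log2 difference 0.39, SE 0.08, adjusted p 0.219). Of the hypothalamic and neural lobe peptides 0 of 8 passed it. Avp, vasopressin, lay between 12.96 and 14.27 on the CFA side and between 13.29 and 13.78 on the contralateral side, and Oxt, oxytocin, between 6.99 and 7.95 on the CFA side and between 7.33 and 8.11 on the contralateral side. Their r to the profile was 0.05 for Avp and -0.25 for Oxt. Over the 8 peptides r ran from -0.60 (Crh, slope -0.20) to 0.30, and their mean level had r = -0.60. Of the intermediate lobe and pituicyte genes Rax was above background on no array, and Oacyl had r = 0.54 (slope 0.11), with 0 of 2 past the threshold.

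The receptors of the pituitary hormones had 0 of 8 past the threshold, with the smallest p for Mc5r, a melanocortin receptor (log2 difference -0.61, SE 0.21, adjusted p 0.403). The placental prolactin family and other glycoprotein hormone genes had 2 higher and 0 lower of 24. Prl8a9 was above background in 5 of 6 CFA ganglia and in 0 of 5 contralateral ganglia. Its log2 difference was 1.46 (SE 0.44, adjusted p 0.339), although contralateral rat 5 (3.86) lay above some CFA arrays. The Prl8a9 difference was 0.76 with a floor at the lowest signal well above background, 0.26 without background correction and 0.14 with normexp. Neither Prl8a9 nor Prl2c1 passed the threshold under any of these settings. Prl2c1 averaged 3.77 ± 0.21 on the CFA side and 2.73 ± 1.14 on the contralateral side (log2 difference 1.04, SE 0.43, adjusted p 0.448). Both were dim, with r of 0.23 and 0.32 to the profile, and such family members can share sequence.

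**Figure D4:**
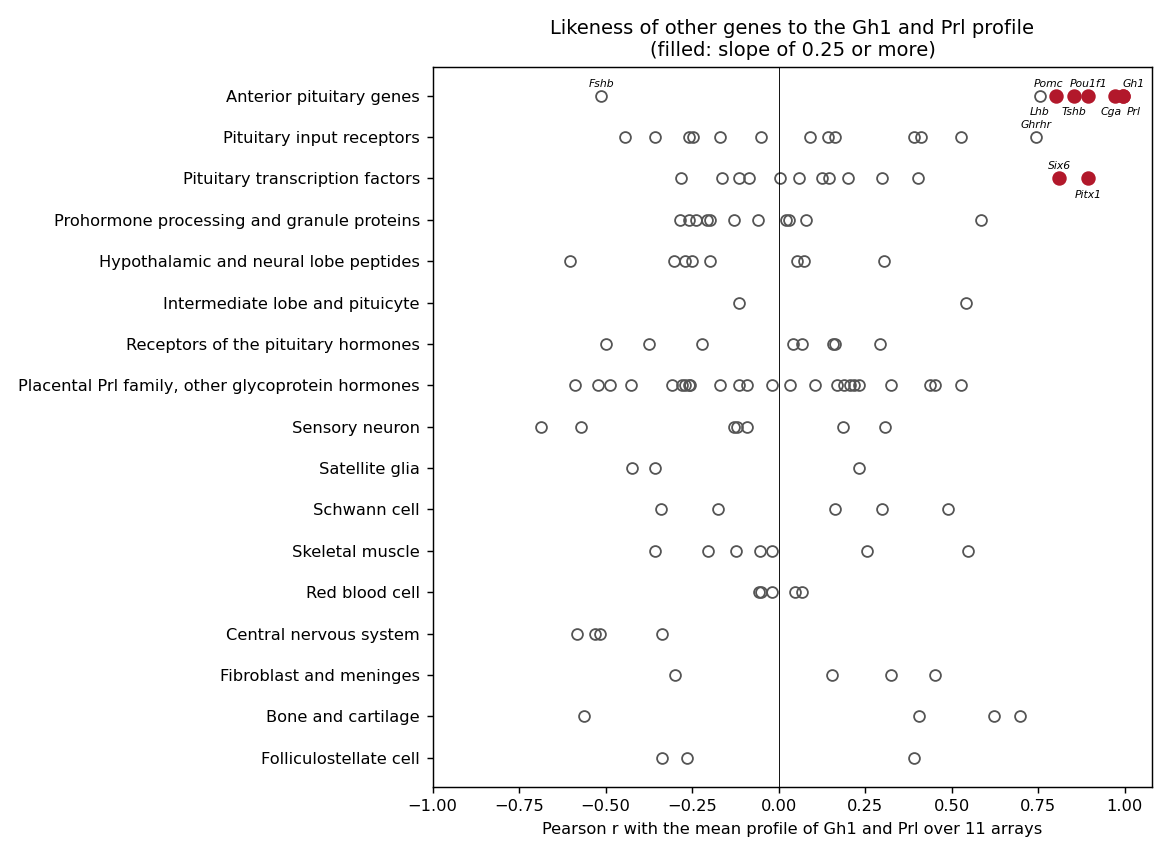
Pearson r with the mean profile of Gh1 and Prl over 11 arrays (horizontal axis) for the anterior pituitary genes and for the genes of each other list (rows), with 1 point per gene reported here, filled where the slope on the profile was 0.25 or more, and names at an r of 0.7 or more and for Fshb. Among the anterior pituitary genes Lhb (slope 0.247) and Fshb are open, and outside that row only Pitx1 and Six6 are filled.

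Markers of other tissues were set beside the hormones. The mean log2 level of the sensory neuron markers had r = 0.01 to the profile, that of skeletal muscle 0.09 and that of red blood cells -0.01. Single sensory neuron genes had r from -0.69 (Trpv1) to 0.31 (Prph), with slopes of -0.017 to 0.045. For single muscle genes r ran from -0.36 to 0.55, and for red blood cell genes from -0.06 to 0.07. Of the 4 central nervous system markers, Gfap, Mog and Aqp4 also differed widely between arrays, over 5.20, 4.58 and 4.52 log2 units, and Neurod6 over 0.79. The mean level of the 4 was 8.00 to 11.14 on the CFA side and 7.96 to 10.90 on the contralateral side, but in another order (r = -0.57). Gfap measured 15.19, 14.06 and 15.33 on the CFA side of rats 1, 2 and 3 and 15.23 and 15.00 on the contralateral side of rats 1 and 3, and it was lower on the other 6 arrays (10.13 to 10.74 on those of the CFA side). Its high arrays include the lowest and the highest arrays of Gh1. The folliculostellate cell markers of the pituitary had r = -0.22 and the satellite glia markers r = -0.51 as mean levels. Each list had 3 measured genes, which ran in both directions (Anxa1 0.39 and Aldh1a2 -0.34, Fabp7 0.23 and Kcnj10 -0.42). Kcnj10 was above background on 2 arrays only. The bone and cartilage markers had r = 0.58 and the Schwann cell markers r = 0.46 as mean levels, with single genes in both directions (Ibsp 0.70 and Col2a1 -0.56, Egr2 0.30 and Prx -0.34) and slopes of 0.16 or less. Whether the hormone transcripts came from pituitary tissue taken with the ganglion was not tested.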

How the data were processed

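The intensity values of 11 one-colour arrays (rat lncRNA and mRNA design) were deposited by the authors as Agilent Feature Extraction 11.0.1.1 output, with the background subtracted and no normalisation between arrays. The authors also deposited a table of quantile normalised linear intensities, used as an alternative. Precision is limited by the number of arrays.

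Of 43553 spots, 1417 controls were left out. The log2 processed signal was quantile normalised over 42136 spots, outlier spots were set to missing, and spots of a probe were averaged to 24684 probes. CFA was compared with contralateral in limma 3.58.1 (R 4.3.3), the tool the paper's methods name, without covariates, at a p of 0.05 with a fold over 2 and, beside it, at a Benjamini-Hochberg adjusted p of 0.05. The script was tested on simulated data. Pearson correlations and slopes over arrays, and the motif search in RefSeq sequences, used Python 3.11.15. Symbols came from a RefSeq table by accession, and its coordinates were used for the promoter sequences only, since the file headers name another build.

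The members and lists were chosen with earlier results of these data known. Named genes were the members, up to 4 genes per list past the threshold by smallest p (otherwise the gene with the smallest p), and the 10 probes of 1 gene most like the Gh1 and Prl profile by r, above background on 6 or more arrays and with a slope of 0.25 or more. Marker lists were read as levels. For a gene with several probes, the brightest stood for it in lists. An item that the rule also named is not reported here.

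Alternatives were 75th percentile scaling, normexp (offset 50) on the median spot signal, since no mean signal was in the files, no background correction, a floor, the deposited table, outliers kept, a filter on dim probes, an intensity trend, the rat, slide or scan day as a block, and each array left out. Added after seeing the data were the fits without the 2 highest arrays, with the hormone profile as a covariate, and the correlations without rat 1. The 2 ganglia of a rat are paired by animal. Deviations of the sides correlated at over 0.1 in 1 of 5 rats, and no side correlated best with its own partner. Arrays of a side came from different rats, with 1 array per ganglion. The slide was inferred from equal scan times, and the scan day from the scan date.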

Additional observations from a re-analysis of the deposited data

Results flagged for a closer look

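Within the 54 groups of arrays tested for 1 value far from the rest, 3 were flagged, where chance flags about 1 in 20 groups, and none of the 8 anterior pituitary genes was among them. Lhx4 was 7.19 on the CFA array of rat 1, far above the others of its side (median 6.41). Oxt was 7.95 on the same array, against a median of 7.25. Mc5r was 3.80 on the contralateral array of rat 6, below the others of its side (median 4.42). Their r to the Gh1 and Prl profile was -0.16 for Lhx4, -0.25 for Oxt and -0.50 for Mc5r.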

How the results depend on the processing

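The median r of 0.84 among the 21 pairs of the 7 genes lay between 0.82 and 0.88 under all 22 alternatives, also without both arrays of rat 1 (0.86) and without the 2 highest arrays, CFA rat 2 and contralateral rat 6 (0.82). The lowest single pair was 0.36 in the last of these. No member passed the threshold between the sides under any setting except Prl, which passed it with the slide (-11.18) and the scan day (-8.94) as a block. The dim Fshb and Pou1f1 gave no value under the filter on dim probes. The count of 498 probes called fell to 16 with normexp background correction, 47 without background correction, 290 with a floor at the lowest signal well above background and 301 with the filter. It ranged from 330 to 796 with 1 array left out, the contralateral arrays of rats 1, 5 and 6 giving 330, 771 and 796. The count of list genes called, 4 in the fit reported, was 0 with normexp, 0 without background correction, 2 with the floor, 1 with the filter, 1 with the slide as a block and 0 with the scan day as a block, and 3 to 6 with 1 array left out, not always of the same genes. At an adjusted p of 0.05, 0 probes passed except 121 without the CFA array of rat 1 (3 of them in the lists), 4 without contralateral rat 3, 3 without contralateral rat 5, 69 with the slide and 35 with the scan day as a block, and 7 with the hormone profile as a covariate. Without the CFA array of rat 1, side and scan day coincide, and both the slide and the scan day block rest on that array. With the rat as a replicate block, which pairs the sides of 5 rats, 370 probes and 3 list genes were called. The difference was then -0.49 for Gh1 (SE 0.98) and -0.96 for Prl (SE 1.01). The causes were not tested. Dim signals and 11 arrays limit what Fshb and Pou1f1 can show.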
